A study of Zea mays with 6 samples.

Results

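Counts of barren stalk1 (ba1, gene ID Zm00001d042989) and barren inflorescence2 (bif2, gene ID Zm00001d031068) were examined in developing maize (Zea mays) ears. Both genes are required for axillary meristems to form, and they were chosen by gene ID. They are 2 of the 46272 gene IDs in the count files. The deposited files carry no gene names, and the RefSeq gene table used here lists bif2 without these IDs. The names are therefore those under which the IDs were selected, and the link between name and ID was not checked here.

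The libraries came from ears 2 to 3 mm long, 3 from ra3;tpp4 double mutants and 3 from wild-type (WT) plants of the inbred line B73, all field-grown. The series calls the replicates biological. The labels name no allele of ra3 or tpp4 and no inbred background for the mutants, so differences of background and of the mutations cannot be told apart. RAMOSA3 (ra3) is a trehalose-6-phosphate phosphatase that limits branching of the ear, and tpp4 encodes another enzyme of that family. Neither was tied to a gene ID by the tables used here, so loss of their transcripts was not checked.

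Axillary meristems are the small groups of stem cells that arise in the axils of leaves and bracts. In a maize ear they become the spikelet pairs that bear kernels, and in ramosa mutants some of them grow into long branches. Their initiation depends on the transport of auxin to the flanks of the inflorescence. bif2 encodes a serine/threonine protein kinase, a co-orthologue of Arabidopsis PINOID, which acts on auxin transport. bif2 mutants form few branches, spikelets and florets. ba1 encodes a basic helix-loop-helix transcription factor, the counterpart of rice LAX PANICLE1, and is transcribed in a narrow zone at the boundary of new axillary meristems. ba1 mutants lack ears and tassel branches. The BIF2 kinase is known to phosphorylate the BA1 protein, and ba1 transcription is known to depend on auxin signals. The comparison asks whether transcripts of these initiation genes differ in ears that carry the branching mutations.

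ba1 was near the limit of detection in every library and had fewer counts in ra3;tpp4 than in WT. bif2 was well detected, and 2 of its 3 levels in ra3;tpp4 lay within the range of WT. Neither gene was called as changed by the fits across gene IDs. After the usual filter on low counts (at least 10 counts at the median depth, in at least 3 libraries), 1 of the 2 genes, bif2, was tested. The background in that fit was 310 of 21127 IDs called, or 1.47%, with 0.549% lower in the mutant (quasi-likelihood test of edgeR, calls at a Benjamini-Hochberg adjusted p under 0.05). Values below are counts per 1000000 counts over all gene IDs of a library (CPM), and n is 3 libraries per genotype throughout.

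The ba1 row held 0, 5 and 1 counts in ra3;tpp4 replicates 1, 2 and 3, against 8, 10 and 11 counts in WT replicates 1, 2 and 3. As CPM these are 0, 0.198 and 0.0518 in ra3;tpp4, against 0.309, 0.374 and 0.426 in WT. Every mutant library thus lay below every WT library, with mutant replicate 2 nearest to WT. The mean was 0.0833 ± 0.103 CPM in the mutant and 0.370 ± 0.0586 CPM in WT (SD, n = 3 each). Had the mutant libraries carried the pooled WT share of ba1, their depths would have given 8.89, 9.34 and 7.13 counts. RNA came from dissected ears, so fewer cells that transcribe a gene cannot be told apart from less RNA per cell.

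**Figure D1:**
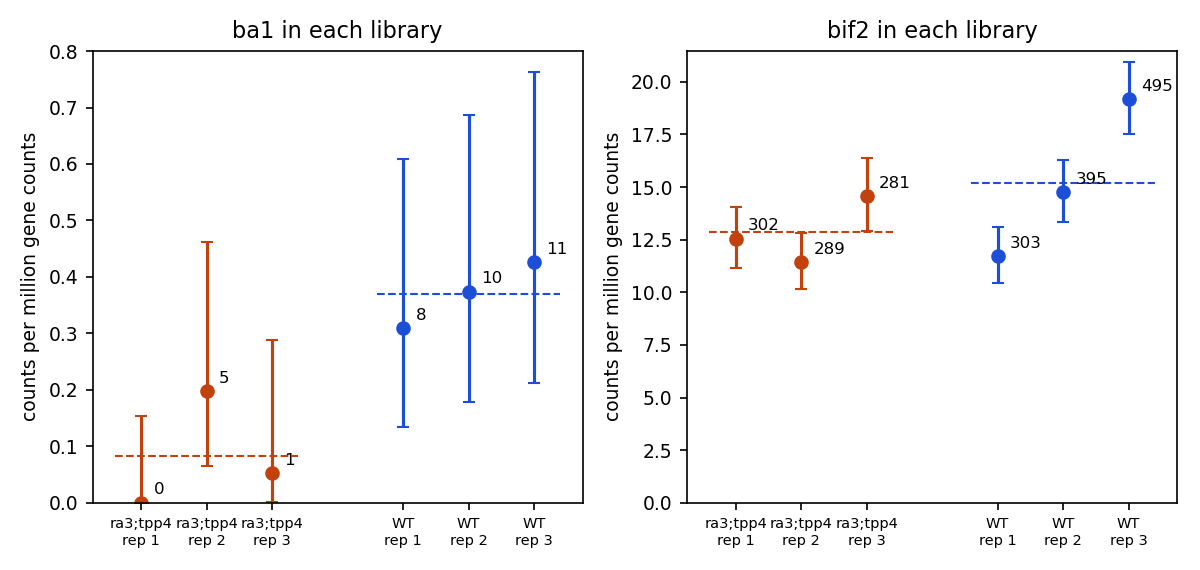
Level of ba1 (left) and bif2 (right) in each library, in CPM on a linear axis from 0. Points are single libraries labelled with their raw count, bars are 95% exact Poisson intervals for counting error, and dashed lines are group means. All 3 ra3;tpp4 libraries lie below the 3 WT libraries for ba1, while for bif2 the groups overlap and WT replicate 3 is highest at 19.2 CPM.

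Counting error is large at these numbers. The 5 counts of ra3;tpp4 replicate 2 have a 95% exact Poisson interval of 1.62 to 11.7 counts, and the 8 counts of WT replicate 1 one of 3.45 to 15.8, so the intervals of single libraries overlap between genotypes. For mutant replicate 1, a count of 0 allows a level of up to 0.125 CPM by the limit of 3 counts, and up to 0.153 CPM by the exact Poisson interval. Both lie below each of the WT values, though the second lies above the lower end of the interval of WT replicate 1, 0.133 CPM. Exact intervals, floors and tests on summed counts cover counting error only and hold no spread between libraries. They also treat each read as an independent molecule, which reads are not.

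Summed over libraries, ba1 had 6 counts in ra3;tpp4 (exact Poisson interval 2.20 to 13.1) and 29 in WT (19.4 to 41.6). In proportion to depth this is 4.23-fold less in the mutant, with an exact conditional 95% interval of 1.72 to 12.5. An exact binomial test on these sums gave p = 0.000493, two-sided, but it takes no account of the spread between libraries. Among the WT libraries the SD of the ba1 counts was 1.53, less than the 3.11 that counting alone gives at their mean. Among the ra3;tpp4 libraries it was 2.65, more than the 1.41 that counting gives.

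A test that uses the spread between libraries did not call ba1. It missed the filter on low counts, since only WT replicate 3 reached the required 0.392 CPM. In the same edgeR fit run on all 29851 IDs with a count, the fitted log2 change of ba1 was -2.04 with an SE of 0.984, and its edgeR adjusted p was 0.461. The 95% interval ran from -4.07 to -0.0013, next to no change. The unadjusted edgeR p was 0.0499. In that fit 1.71% of IDs were called, 4.92% were lower in ra3;tpp4 at an unadjusted p under 0.05, and 0.714% were called lower after adjustment. The exact permutation test on CPM gave p = 0.1 (two-sided), which is as low as 3 libraries against 3 can go. Groups split in this direction in 9.01% of the 29851 IDs, so the split alone does not set ba1 apart.

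**Figure D2:**
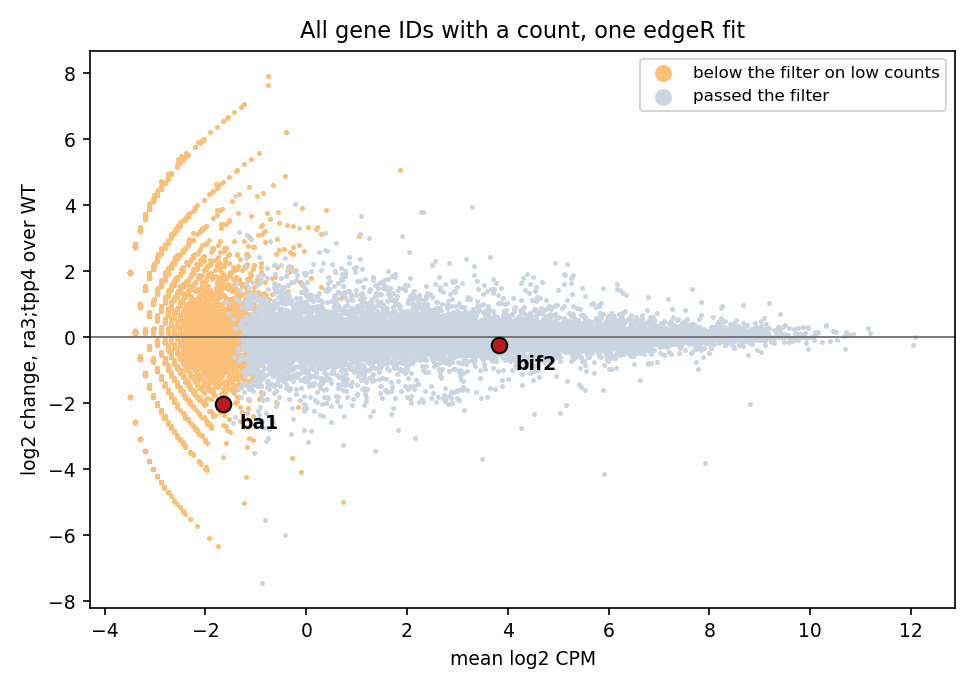
Mean log2 CPM (x axis) and log2 change of ra3;tpp4 over WT (y axis) for the 29851 gene IDs with a count, from 1 edgeR fit. Pale blue points passed the filter on low counts and orange points did not. ba1, at -2.04, lies among the orange points, where changes scatter widely, and bif2 lies close to the line of no change.

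At the level of ba1 few IDs were called. There were 733 other IDs within 0.25 of its mean log2 CPM, and 3 of them (0.409%) were called, 2 higher and 1 lower. The smallest change among those 3 was 19.6-fold, against 4.10-fold fitted for ba1, but so few calls do not set the size a change must reach. Their log2 changes had a median of 0.03 and quartiles of -0.65 and 0.78. Of the 733, 23 (3.14%) had a more negative log2 change than ba1, and 57 (7.78%) had all mutant libraries below all WT libraries.

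The size of the ba1 difference depended on single mutant libraries. Without ra3;tpp4 replicate 2, 1 count remained in the mutant libraries against 29 in WT, a ratio of 0.0624 (exact conditional interval 0.00153 to 0.376), and the edgeR log2 change was -3.69 (adjusted p = 0.0983). Without mutant replicate 1, the library with no ba1 count, the log2 change was -1.46 (adjusted p = 0.772). ra3;tpp4 stayed below WT in each such fit, and ba1 was called in none.

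bif2 had ample counts for the test in every library. It held 302, 289 and 281 counts in ra3;tpp4 replicates 1, 2 and 3, against 303, 395 and 495 counts in WT replicates 1, 2 and 3. As CPM these are 12.6, 11.4 and 14.6 in ra3;tpp4, against 11.7, 14.8 and 19.2 in WT. The groups overlapped: 2 of the 3 mutant libraries lay within the WT range, and mutant replicate 2 lay just below WT replicate 1. WT replicate 3 stood above all other libraries, and its counting interval of 17.5 to 20.9 CPM reached none of theirs. The highest of the other intervals ended at 16.4 CPM, in mutant replicate 3.

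The mean of bif2 was 12.9 ± 1.58 CPM in ra3;tpp4 and 15.2 ± 3.75 CPM in WT (SD, n = 3 each). The fitted log2 change of bif2 was -0.22 with an SE of 0.183, and it was not called (edgeR adjusted p = 0.662), while the exact permutation test on CPM gave p = 0.4, two-sided. The 95% interval of the log2 change, -0.63 to 0.19, leaves room for a level 1.55-fold lower to 1.14-fold higher in the mutant, which does not show that the genotypes are alike. Of the 9 pairs of a mutant and a WT library, the mutant was lower in 7 and higher in 2, with log2 ratios from -0.74 to 0.31. By summed counts, 872 in the mutant against 1193 in WT, an exact binomial test for counting error gave p = 5.39e-05. That value treats reads as the replicates and ignores the spread among WT libraries, whose SD was larger than the difference of the means.

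The coefficient of variation of bif2 in WT was 24.7%, where counting error alone gives 5.01%. At the level of bif2 there were 1705 other tested IDs within 0.25 of its mean log2 CPM, with a median WT coefficient of 9.47%, and 96.2% of them varied less in WT than bif2. In ra3;tpp4 the coefficient was 12.3%, against a median of 9.76% for the same IDs. Of the 1705, 25 (1.47%) were called, and the smallest change called was 1.43-fold. The design thus called some changes of that size at this level. The median SE of these IDs was 0.127, against 0.183 for bif2, so the same size need not have been called in bif2. The log2 change of bif2 lay inside the range of most neighbours, with 12.5% of them more negative.

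**Figure D3:**
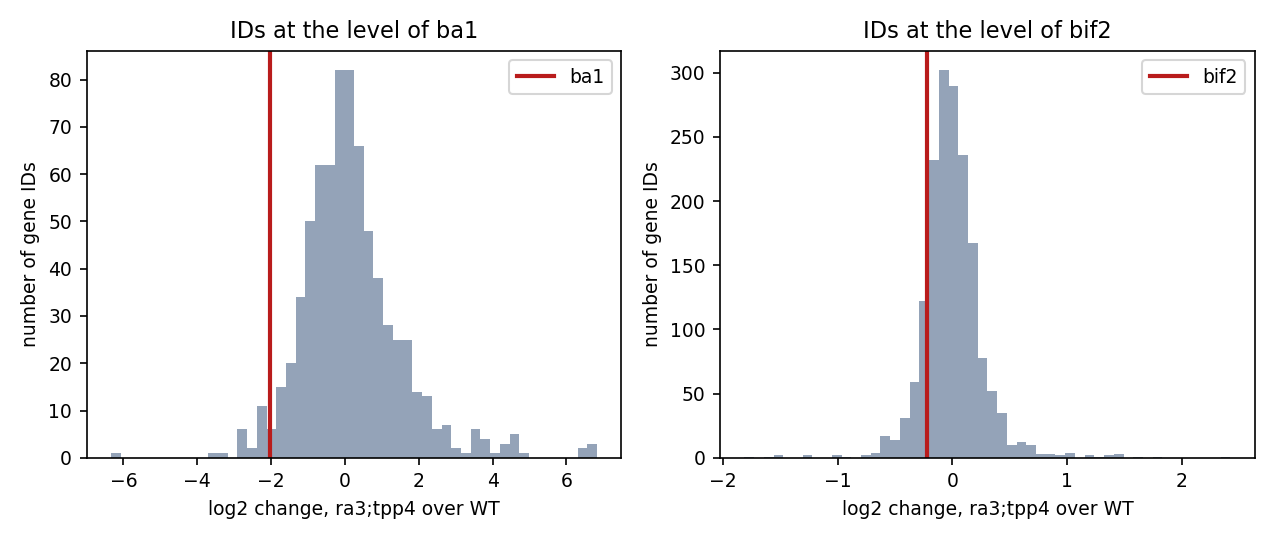
Log2 change of ra3;tpp4 over WT for gene IDs within 0.25 of the mean log2 CPM of ba1 (left, 733 IDs) and of bif2 (right, 1705 IDs). The y axis counts IDs and the red line marks the gene itself. The spread is several times wider at the level of ba1, and both genes lie to the left of the centre.

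Leaving out WT replicate 3 brought the log2 change of bif2 to -0.02 (edgeR adjusted p = 0.974), and leaving out WT replicate 1 brought it to -0.39 (adjusted p = 0.412). The difference between the means thus depended on which WT libraries entered. The scale mattered too. Of the counts over all lines of a file, non-unique alignments took 11.0% to 15.3% in ra3;tpp4 and 19.3% to 22.2% in WT. Gene IDs received 75.3% to 77.7% in ra3;tpp4 and 65.5% to 68.9% in WT. The summed bif2 counts of the mutant were 1.20-fold lower than those of WT as a share of gene counts. As a share of the counts over all lines they were 1.05-fold lower. The same change of denominator took ba1 to 3.70-fold lower, against 4.23-fold. Whether the genotypes differ in reads of these genes that fell among the non-unique alignments was not tested.

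Both genes were counted in the same libraries, so their plain ratio does not depend on library size. The log2 ratio with an added count does depend on it where ba1 counts are few. ra3;tpp4 replicates 1, 2 and 3 gave 0, 1.73 and 0.356 ba1 counts per 100 bif2 counts, against 2.64, 2.53 and 2.22 in WT replicates 1, 2 and 3. The WT values lay close together and above every mutant value. They rest on 8, 10 and 11 ba1 counts, where counting error alone gives a coefficient of variation of 32.2%. The closeness is thus tighter than counting error, and the split restates that of the ba1 counts. With 1 count added to each gene, the log2 ratio was -6.99 ± 1.33 in ra3;tpp4 and -5.21 ± 0.149 in WT (SD, n = 3 each), a difference of -1.79 (p = 0.1 in a two-sided exact permutation test, the lowest value the design allows). Gene lengths were not at hand, so the ratio compares genotypes and not the levels of the 2 genes with each other.

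**Figure D4:**
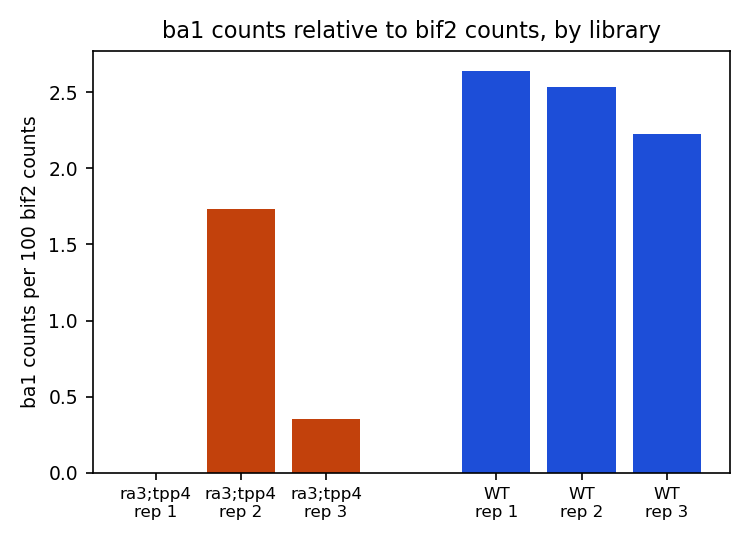
Number of ba1 counts per 100 bif2 counts in each library, on an axis from 0, with ra3;tpp4 in orange and WT in blue. The 3 WT bars stand between 2.22 and 2.64, while the mutant libraries give 0, 1.73 and 0.356.

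**Figure D5:**
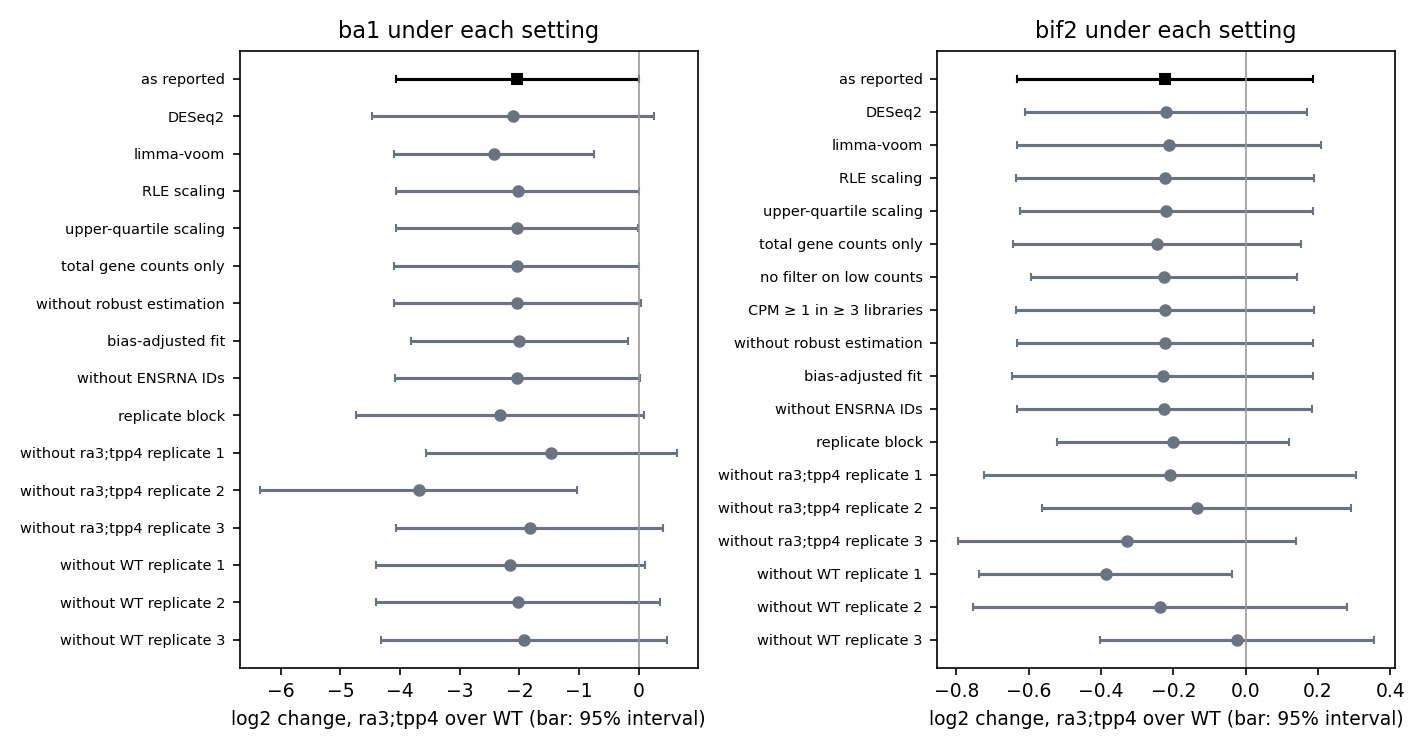
Log2 change of ra3;tpp4 over WT for ba1 (left) and bif2 (right) as reported (black square) and under each alternative setting (grey points), with 95% intervals as bars. All points lie below 0 for both genes, and the outermost for ba1 are those without ra3;tpp4 replicates 1 and 2, and for bif2 those without WT replicates 1 and 3.

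The plot of changes by setting shows how far each value moved. For ba1 the log2 change ran from -3.69 to -1.46 over 15 alternative fits, with adjusted p from 0.0983 to 0.772. Its unadjusted p, 0.0499 in the edgeR test, was 0.0813 in DESeq2 (Wald test) and 0.00892 in limma-voom (moderated t test). The DESeq2 interval of the log2 change included no change, and the limma-voom interval did not. For bif2 the log2 change ran from -0.39 to -0.02 over 17 alternative fits, with adjusted p from 0.412 to 0.974.

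The gene IDs whose profile over the 6 libraries was most like that of each gene were found by Pearson correlation of log2 CPM, as a description without a test. For ba1 they were Zm00001d050107 (r = 0.995) and Zm00001d035543 (r = 0.994), among 18468 IDs whose mean log2 CPM was 1 or more. Both had all mutant libraries below all WT libraries, as ba1 did. Zm00001d050107 spanned 14.0 to 16.3 CPM in ra3;tpp4 and 17.2 to 17.9 CPM in WT, and Zm00001d035543 spanned 9.52 to 14.9 CPM in the mutant and 16.4 to 19.2 CPM in WT. For bif2 they were Zm00001d033594 (r = 0.991) and Zm00001d026544 (r = 0.988). In both of these the genotypes overlapped: Zm00001d033594 spanned 6.81 to 7.57 CPM in the mutant and 7.07 to 9.30 CPM in WT, and Zm00001d026544 spanned 3.48 to 4.41 CPM in the mutant and 3.86 to 5.81 CPM in WT. None of the 4 was called (edgeR adjusted p from 0.112 to 0.740). Over only 6 libraries the 4 were not alone in a high r. At a looser limit, r of at least 0.9, there were 187 of 18468 IDs for ba1 and 244 of 18467 for bif2. The IDs were picked for likeness over these same libraries, so a shared split or overlap follows largely from the choice. The tables used here give these IDs no name.

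Other genes of the pathway could not be placed beside these 2. A list of 14 symbols for auxin synthesis, transport and signalling and for boundary genes (such as ba2, bif1, bif4, spi1 and vt2) was drawn up. The list also holds ba1 and bif2 themselves. The RefSeq gene table held 3 of the 14 symbols, bif2, spi1 and nam1, and tied 0 to a gene ID in the files. The same held for the 15 marker symbols for the ear and the 4 for leaf, of which 0 were tied, so the labelled tissue was not checked against its markers.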

How the data were processed

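The authors deposited raw counts per gene ID, 1 file per library. The submitters' processing notes name Trimmomatic 0.36, HISAT2 2.1.0, HTSeq and, as the build, B73 RefGen_v4. Neither annotation release nor strand setting is given in the sources used here. Reads shared with overlapping, antisense or near-identical genes therefore cannot be seen. The 5 HTSeq lines at the end of each file, for records without a gene, held 22.3% to 34.5% of its total and stayed out of library sizes and tests. Totals over gene IDs were 19291332 to 25254164 in ra3;tpp4 and 25815984 to 26752609 in WT.

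The 21127 gene IDs that passed filterByExpr entered 1 fit of genotype in edgeR 4.0.16 (quasi-likelihood F test, robust, TMM scaling) in R 4.3.3. The p-values were adjusted over all tested IDs. ba1 missed the filter, so its fitted values and alternatives come from the fit on all 29851 IDs with at least 1 count, a choice made after seeing the data. SEs were derived from the log2 change and F. Exact intervals and permutation tests used scipy 1.17.1. The planned log ratio of ba1 to bif2 has no value in the library with 0 ba1 counts, so 1 count was added. The planned correlation of ba1 with bif2 over 6 libraries is not given, because ba1 separates the genotypes and 3 libraries within a genotype are too few. The fits were tested on simulated data, whose outcome is not given here. The changed IDs there had at least 10 expected counts at the median depth, and all IDs shared 1 dispersion. ba1 lies below that level, so recovery of a change at its level was not tested. Alternatives used DESeq2 1.42.0, limma-voom (limma 3.58.1), other scalings and filters, a replicate block, and leaving out each library.

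Named IDs are the 2 genes and, for each, the 2 IDs with the highest Pearson r over the 6 libraries (log2 CPM, prior count 2) among tested IDs with a mean log2 CPM of 1 or more. The members and lists were chosen with earlier results of these data known.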

Additional observations from a re-analysis of the deposited data

How the results depend on the processing

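Over 15 alternative fits for ba1 and 17 for bif2, 0 reversed the direction and 0 called either gene. ba1 has no value with the filters on low counts, which it does not pass. The number of gene IDs called, 310, was 846 in DESeq2 and 511 with no filter on low counts; the cause was not tested. Fits without 1 library each called 58 to 471 IDs, with fewer libraries entering them. They gave log2 changes of -3.69 to -1.46 for ba1 and -0.39 to -0.02 for bif2. The difference in the log2 ratio of ba1 to bif2, computed from counts without a fit, ran from -2.49 to -1.16 without 1 library each. With all libraries that difference, -1.79, was -2.23 with 0.5 counts added. The deviations of mutant and WT libraries with the same number correlated at -0.181, -0.123 and 0.154. These weak values, from means of 3 libraries, cannot settle whether libraries with the same number were handled together. With the replicate block, the log2 change was -2.32 for ba1 (edgeR adjusted p = 0.559) and -0.20 for bif2 (adjusted p = 0.640), and 290 IDs were called. The ratio difference stays at -1.79 with the block by arithmetic. An exact sign-flip permutation test on the differences within numbers gave p = 0.25 (two-sided), the lowest value the design allows. The ratios over the counts of all lines, the added count of 0.5 and DESeq2 without independent filtering for ba1 were chosen after seeing the data. ba1 had at most 11 counts in any library.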
